A study of Capra hircus with 4 samples.

Results

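The cadherins, protocadherins and catenins were followed through the cell classes of the goat ovary. They were taken by name from the annotation of the deposited matrices, as every gene whose symbol is CDH and a number, every gene whose symbol starts with PCDH, and the catenin genes CTNNA1, CTNNA2, CTNNA3, CTNNB1, CTNND1, CTNND2 and JUP. This gave 42 of 28944 annotated genes, made up of 22 CDH genes, 13 PCDH genes and 7 catenins. The rule used names and no measured value, though it was set with earlier results of these data known.

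Cadherins are membrane proteins that bind cadherins of the neighbouring cell through calcium-dependent repeats outside the cell. Inside the cell the classical cadherins hold β-catenin or plakoglobin, α-catenin ties that complex to the actin skeleton, and p120-type catenins keep the cadherin at the surface. Protocadherins share the outer repeats, bind more weakly and do not hold β-catenin. In the ovary these junctions join granulosa cells to each other and to the oocyte, seal vessels and line the surface epithelium.

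The study asked how ovarian cells differ between a breed that bears several kids at a birth and one that bears a single kid. Left ovaries came from 2 Nubian goats (polytocous, recorded litter size 3) and 2 Du'an goats (monotocous, recorded litter size 1), all about 3 years old. All 4 goats carried a progesterone device (CIDR, 300 mg) for 17 days to synchronise estrus, and the ovaries were taken after estrus began. Each goat gave 1 single-nucleus library made with the 10x Genomics 3' chemistry, which counts unique molecular identifiers (UMIs), so breed, litter size and individual goats cannot be told apart beyond 2 goats against 2.

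The matrices held 48332 nuclei, of which 44872 passed the limits on UMIs, genes and mitochondrial share, 8723 to 15848 in a library, with median depths of 1755 to 3317 UMIs. Nuclei fell into 23 clusters, named from marker lists, and 14 named classes had at least 20 nuclei in 2 or more goats. The members were left out of the genes that built the clusters. Classes are called "-like" since they were rebuilt here, and several were unevenly spread. Mural-like granulosa nuclei numbered 0 and 1483 in the Du'an goats against 4739 and 428 in the Nubian goats, and 530 of 560 fibroblast-like nuclei came from Nubian replicate 1. The mural-like class joined cluster 4, with 4696 of 4743 nuclei from Nubian replicate 1, and cluster 10, with 1461 of 1907 from Du'an replicate 2 and 403 from Nubian replicate 2. Differences between goats and between clusters can therefore hardly be told apart in that class. A class of 7203 nuclei joined cluster 9, with 6 of 7 progenitor granulosa markers raised, and cluster 2 (5109 nuclei), with 4 of 7 raised. Cluster 2 went against that name, since its mean log2 fold was 0.91 for the Schwann list (2 of 7 raised) and 0.90 for the progenitor list, and its 10 leading genes held 1 Schwann marker and 0 progenitor markers. The class is therefore called clusters 2 and 9 and given no cell type name. Some of its results are also given by cluster or without cluster 2, an alternative chosen after the data had been seen. Its other results describe the joined class only. The cycling class joined cluster 13, whose next best marker list was cumulus, and cluster 14, whose next best list was mural and which held 777 of its 883 nuclei from Nubian replicate 1. The defining granulosa gene FOXL2 stayed at or below 3.23 CPM in every class mean, whereas FSHR reached 3545 CPM in cumulus-like nuclei. Between 54 and 131 barcodes were shared by a pair of libraries, and leaving their nuclei out kept all 184 calls counted below.

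Levels are given in CPM, the share of a gene in the UMIs summed over all nuclei of a class in a goat, scaled to a common total, in the order replicate 1 then replicate 2 of each breed, and ± after a fold change is its standard error. Every class was compared with the average of all remaining classes by edgeR's quasi-likelihood test. The fit held the goat as a block, and p-values were adjusted by Benjamini-Hochberg over all 14882 genes tested. In whole-class sums, fewer transcripts per nucleus and fewer transcribing nuclei cannot be told apart. Of the 42 members, 31 passed the filter on low counts (16 CDH genes, 8 PCDH genes and all 7 catenins). A member that is scarce outside 1 or a few classes could pass only through those classes, so the counts below describe the genes tested and not the families. CDH7 passed through sums of 6 classes alone, and CDH5 and CDH8 of 5. CDH1, CDH4, CDH20, CDH24 and PCDH18 passed through sums of 4 classes alone, PCDH1 of 3, and CDH22 and PCDH12 of 1. A higher call of theirs in such a class was favoured by the filter and is not independent support.

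Over 14 classes the 31 tested members gave 434 pairs of gene and class. Of these, 106 pairs (24.4%) were higher in the class and 78 (18.0%) were lower, against 18.6% and 12.0% of all gene and class pairs tested. Of the 31, 30 were higher in at least 1 class and PCDH15, a protocadherin of the sensory hair bundle, was called in none. The member levels by class are shown in the plot of class means.

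**Figure D1:**
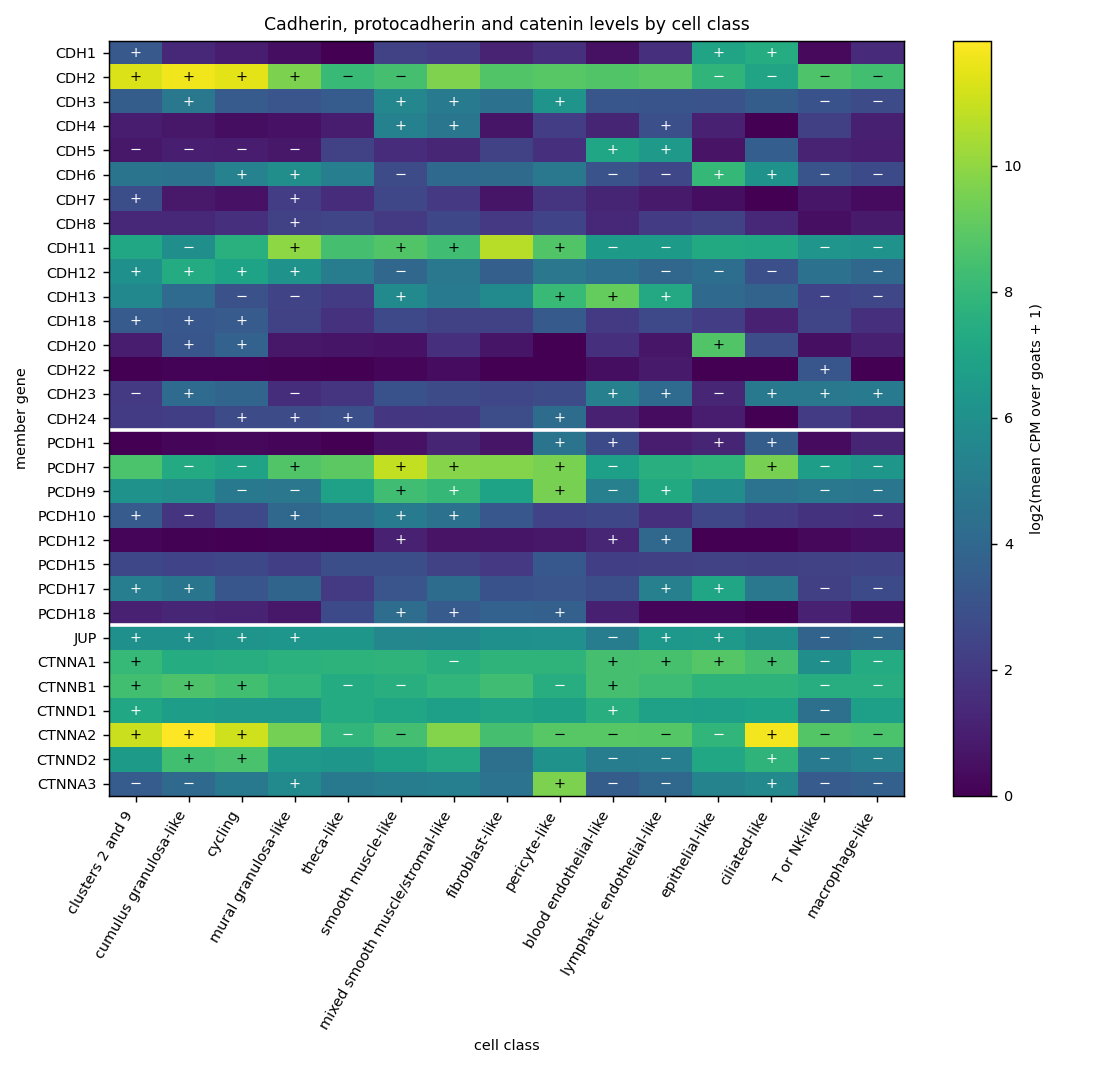
Mean level over goats of each tested member in each cell class, in colour as log2(CPM + 1), where + marks a class with the member called higher and − one with it called lower against the other classes (the fibroblast-like class, from 1 goat, has no test). CDH2 and CTNNA2 carry a + in clusters 2 and 9 and in the cumulus-like and cycling classes, CDH5 in both endothelial-like classes alone, CTNNA3 is brightest in pericyte-like nuclei and CDH20 in epithelial-like nuclei.

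The classes differed in how many members they favoured. In clusters 2 and 9 12 members were higher and 3 lower, against 20.4% and 10.8% of all genes, and with cluster 2 left out 10 were higher and 3 lower. Cumulus-like nuclei had 11 higher and 5 lower (all genes 22.4% and 14.8%), cycling nuclei 10 and 4 (21.5% and 16.0%), and mural-like nuclei 11 and 4 (18.8% and 15.1%). Theca-like nuclei had the fewest higher members of the follicle classes, with 1 higher and 3 lower against 9.58% and 7.58% of all genes. Around the vessels, pericyte-like nuclei had 9 higher and 2 lower where all genes gave only 8.01% and 3.75%, and smooth muscle-like nuclei had 9 and 5 (17.2% and 7.61%). The mixed smooth muscle and stromal-like class had 7 higher and 1 lower (13.1% and 3.09%). Blood endothelial-like nuclei had 8 and 8 (20.5% and 10.5%), and lymphatic endothelial-like nuclei had 9 and 6 (17.7% and 9.60%). Epithelial-like nuclei had 7 higher and 4 lower (15.7% and 9.84%), and ciliated-like nuclei 9 and 2 (16.5% and 10.9%). Both immune classes went the other way. T or NK-like nuclei had 2 higher and 15 lower members although 28.8% of all genes were higher and 23.9% lower there, and macrophage-like nuclei had 1 higher and 16 lower (30.2% and 24.5%).

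**Figure D2:**
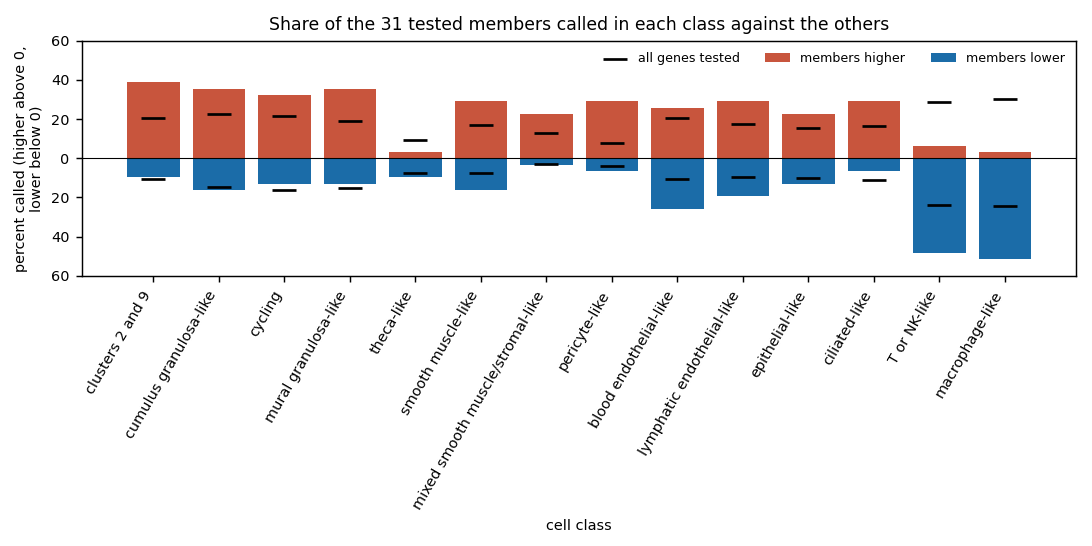
Share of the 31 tested members called in each class, in percent, with bars above 0 for members higher and below 0 for members lower, and a black dash at the share of all 14882 tested genes. In pericyte-like nuclei the bar of higher members (9 of 31) stands above the dash at 8.01%, and in the T or NK-like and macrophage-like classes the lower bars (15 and 16 of 31) pass the dashes while the higher bars fall short of them.

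CDH2, the N-cadherin of nervous tissue, muscle and granulosa cells, was called higher in cumulus-like nuclei, clusters 2 and 9, cycling nuclei and mural-like nuclei and in no other class. In cumulus-like nuclei it stood at 4102 and 3154 CPM (Du'an) and 2253 and 4113 CPM (Nubian), a mean of 3406 ± 890.3 CPM (SD, n = 4), and all 4 goats were above the mean of the other classes (log2 fold change 2.86 ± 0.15, adjusted p = 3.2e-20). Clusters 2 and 9 held 3138 and 2370.4 CPM (Du'an) and 2544 and 2324 CPM (Nubian) (log2 fold change 2.52 ± 0.15, adjusted p = 3.4e-18). The same gene reached 3998 and 3022 CPM (Du'an) and 1030.4 and 3548 CPM (Nubian) in cycling nuclei (log2 fold change 2.51 ± 0.16, adjusted p = 1.2e-18), with Nubian replicate 1 below the other 3 goats. That goat drew most of its cycling nuclei from cluster 14, where CDH2 was at 1498 CPM (Du'an replicate 2) and 845 and 1305 CPM (Nubian) and Du'an replicate 1 had no nuclei. Cluster 13 held 3998 and 3389 CPM (Du'an) and 2440.0 and 3879 CPM (Nubian). In mural-like nuclei the level was lower than in cumulus-like ones, at 627 CPM (Du'an replicate 2) and 569 and 1148 CPM (Nubian), and its rise over the mean of the other classes (log2 fold change 0.78 ± 0.21, adjusted p = 0.0024) was lost without Nubian replicate 2 (0.44, adjusted p = 0.20). The lowest mean of any named class was 125 CPM, in ciliated-like nuclei.

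CTNNA2, an α-catenin best known from the nervous system, followed CDH2 in these classes with a wider spread between goats. Cumulus-like nuclei held 5893 and 3328 CPM (Du'an) and 4642 and 2284 CPM (Nubian), a mean of 4037 ± 1569.5 CPM (SD, n = 4) (log2 fold change 2.72 ± 0.15, adjusted p = 5.5e-19). Ciliated-like nuclei, the class with the least CDH2, lay inside that range, at 3418 CPM (Du'an replicate 2) and 3450.1 CPM (Nubian replicate 2) (log2 fold change 3.02 ± 0.22, adjusted p = 1.2e-16). Clusters 2 and 9 held 4251 and 1501 CPM (Du'an) and 1237 and 1379 CPM (Nubian), where Du'an replicate 1 stood above the other 3 goats (log2 fold change 1.73 ± 0.17, adjusted p = 1.5e-11, and 0.78, adjusted p = 0.00018 with cluster 2 left out). Cluster 2 alone held 5714 and 3271 CPM (Du'an) and 4399 and 1539 CPM (Nubian), and cluster 9 held 1556 and 777 CPM (Du'an) and 1038 and 745 CPM (Nubian). Du'an replicate 1 and Nubian replicate 2 gave 2181 and 2763 of the 5109 nuclei of cluster 2. Within each cluster Du'an replicate 1 was still the highest goat. In mural-like nuclei CTNNA2, at 665 CPM (Du'an replicate 2) and 1038 and 446 CPM (Nubian), was not called (log2 fold change 0.42 ± 0.22, adjusted p = 0.14), though it was without Du'an replicate 2 (0.72, adjusted p = 0.049), Nubian replicate 2 (0.79, adjusted p = 0.019) or cluster 2 (0.52, adjusted p = 0.032).

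Both transcripts were also counted where neither is known to belong. With each nucleus thinned to 1000 UMIs, a CDH2 UMI was found in 82.5% of cumulus-like nuclei (89.1% before thinning, median depth 3660 UMIs) and in 23.2% of T or NK-like nuclei (46.8% before thinning, median depth 2288). Thinned CTNNA2 shares were 81.2% in cumulus-like and 23.1% in T or NK-like nuclei. The ratio of CTNNA2 to CDH2 UMIs in T or NK-like nuclei was 1.15, 1.02, 1.35 and 0.609 in Du'an replicate 1, Du'an replicate 2, Nubian replicate 1 and Nubian replicate 2, beside 1.37, 1.01, 1.58 and 0.563 in the whole libraries. In macrophage-like nuclei the ratios were 1.90, 1.41, 1.22 and 0.609. FSHR, the follicle-stimulating hormone receptor of granulosa cells, was found there too, with 383 CPM in T or NK-like nuclei. No level of free RNA was measured. Whether levels near those of the immune classes, such as the 418 CPM of CDH2 in blood endothelial-like nuclei, came from the class itself was not tested. Of thinned mural-like nuclei 41.05% had a CDH2 UMI.

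Other members called higher in these classes were scarcer. CDH12, a type II cadherin known from brain, held 168 and 213 CPM (Du'an) and 103 and 169.8 CPM (Nubian) in cumulus-like nuclei (log2 fold change 2.85 ± 0.19, adjusted p = 1.8e-16). Every cumulus-like goat was above every mural-like goat and every goat of clusters 2 and 9. CDH12 differed between these clusters. Cluster 2 held 111 and 248 CPM (Du'an) and 89.5 and 80.6 CPM (Nubian), against 20.3 and 16.1 CPM (Du'an) and 17.6 and 13.96 CPM (Nubian) in cluster 9. The neural δ-catenin CTNND2, a p120-type catenin, stood at 407 and 232 CPM (Du'an) and 248 and 421 CPM (Nubian) in cumulus-like (log2 fold change 2.07 ± 0.22, adjusted p = 1.3e-10) and at 484 and 385 CPM (Du'an) and 96.3 and 508 CPM (Nubian) in cycling nuclei (log2 fold change 2.15 ± 0.22, adjusted p = 4.5e-11). Here too Nubian replicate 1 was the low goat of the cycling class. CDH18, another type II cadherin, was low in all classes, with 10.02 and 9.44 CPM (Du'an) and 6.56 and 7.99 CPM (Nubian) in cumulus-like nuclei (log2 fold change 1.22 ± 0.30, adjusted p = 0.00083) and 5.41 and 17.1 CPM (Du'an) and 6.35 and 10.9 CPM (Nubian) in clusters 2 and 9 (log2 fold change 1.37 ± 0.31, adjusted p = 0.00043). The latter call was lost without Du'an replicate 2 (0.79, adjusted p = 0.073). CDH7, also type II, was counted as higher in clusters 2 and 9 at 5.09 and 4.66 CPM (Du'an) and 12.7 and 3.15 CPM (Nubian). It passed the filter on low counts through 6 sums of 6 classes alone, clusters 2 and 9 among them, so it is given as values only.

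**Figure D3:**
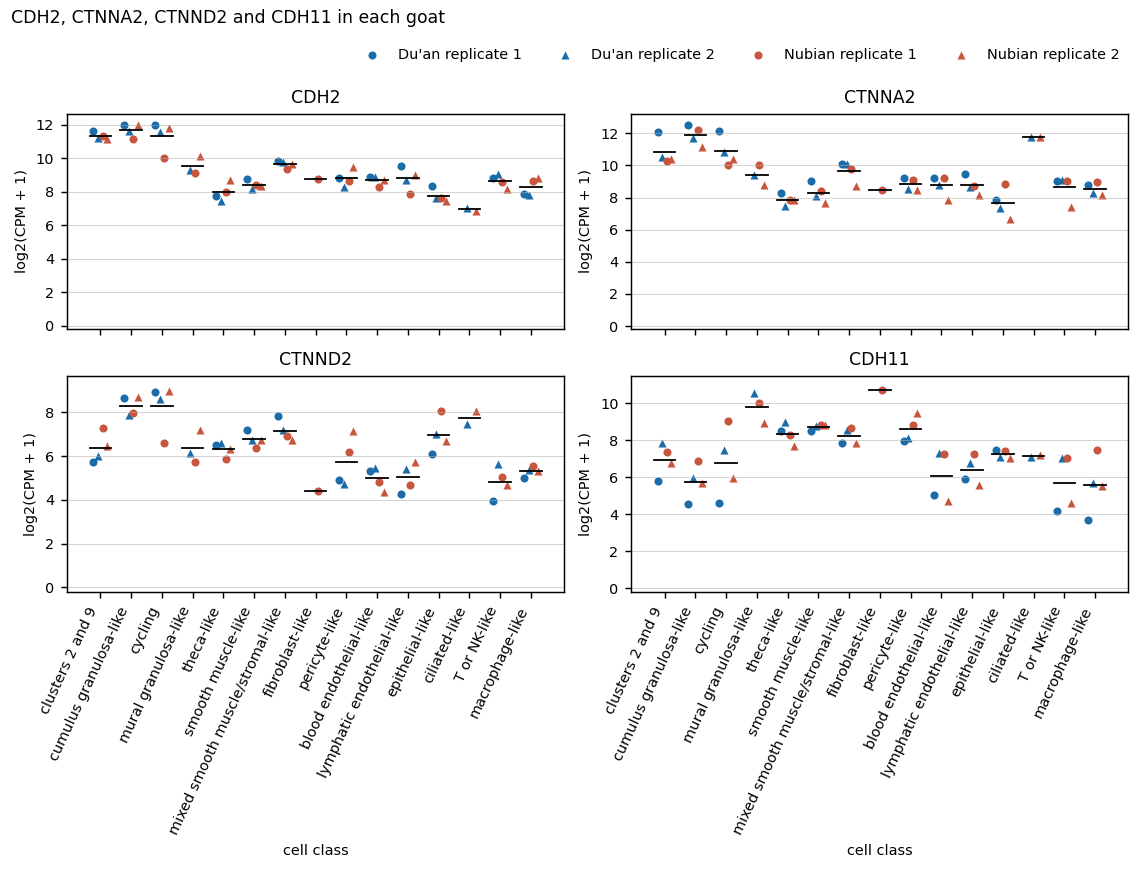
Levels of CDH2, CTNNA2, CTNND2 and CDH11 in every class, as log2(CPM + 1), with 1 point for each goat (blue Du'an, red Nubian, circles replicate 1, triangles replicate 2) and a bar at their mean on that scale. CDH2 and CTNNA2 lie highest in cumulus-like nuclei, clusters 2 and 9 and cycling nuclei, with CTNNA2 as high in ciliated-like nuclei, and CDH11 lies high in mural-like nuclei, which have no sum for Du'an replicate 1.

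CDH11, the type II cadherin of mesenchyme and bone, was highest in mural-like granulosa nuclei among the classes found in 2 or more goats. They held 1481 CPM (Du'an replicate 2) and 1018 and 491 CPM (Nubian), a mean of 997 ± 495 CPM (SD, n = 3) (log2 fold change 2.71 ± 0.28, adjusted p = 8.1e-11), against 22.4 and 61.1 CPM (Du'an) and 115 and 50.5 CPM (Nubian) in cumulus-like nuclei. The groups of goats did not overlap. Smooth muscle-like nuclei were even across goats, with 359 and 440.3 CPM (Du'an) and 459.9 and 447 CPM (Nubian) (log2 fold change 1.52 ± 0.28, adjusted p = 3.3e-05). Pericyte-like nuclei held 248 and 275 CPM (Du'an) and 448 and 707 CPM (Nubian), a rise (log2 fold change 1.35 ± 0.35, adjusted p = 0.0047) that was lost without Nubian replicate 2 (0.80, adjusted p = 0.24). Within the cycling class CDH11 was low in cluster 13, at 23.6 and 52.1 CPM (Du'an) and 112 and 41.7 CPM (Nubian), and higher in cluster 14, at 691 CPM (Du'an replicate 2) and 572 and 191 CPM (Nubian), the reverse of CDH2. CDH24, a type II cadherin with few UMIs, passed the filter on low counts through 7 sums of the cycling, mural-like, pericyte-like and theca-like classes alone. Its levels are therefore given without a test. Mural-like nuclei held 9.08 CPM (Du'an replicate 2) and 4.37 and 3.61 CPM (Nubian), and pericyte-like nuclei 28.9 and 17.2 CPM (Du'an) and 14.00 and 10.1 CPM (Nubian). CDH8, the neighbour of CDH11 on its chromosome, had only 0.598 CPM (Du'an replicate 2) and 8.13 and 3.61 CPM (Nubian) in mural-like nuclei. It passed the filter on low counts through 6 sums of 5 classes alone, mural-like among them, so it is given as values only. It was counted as higher there, a call lost without Nubian replicate 1 or 2.

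Direct contrasts of mural-like nuclei with the other follicle classes used the same fit. Mural-like nuclei against clusters 2 and 9 called 3 of 31 members higher and 7 lower (all genes 8.89% and 13.2%), and 5 higher and 4 lower with cluster 2 left out. CDH11 was higher (log2 fold change 2.71 ± 0.47, adjusted p = 1.3e-05), as was CTNNA3 (2.54 ± 0.39, adjusted p = 1.2e-06). CDH1, the epithelial E-cadherin, was counted as lower. It passed the filter on low counts through clusters 2 and 9 and not through mural-like sums, so it is given as values only. CDH1 lay in cluster 9, with 14.8 and 9.49 CPM (Du'an) and 19.1 and 24.7 CPM (Nubian), whereas cluster 2 held 1.09 and 0 CPM (Du'an) and 0 and 1.56 CPM (Nubian). CDH13 was also lower (-2.67 ± 0.66, adjusted p = 0.0018), a call that rested on Nubian replicate 1 and was lost without that goat (-1.64, adjusted p = 0.071). Mural-like against cumulus-like nuclei gave 5 members higher and 9 lower (all genes 6.01% and 7.95%). CDH11 (3.97 ± 0.49, adjusted p = 6.4e-08) and the δ-protocadherin PCDH10 (2.63 ± 0.50, adjusted p = 1.0e-04) were higher, CDH23 (-2.82 ± 0.42, adjusted p = 1.6e-06), CDH2 (-1.93 ± 0.30, adjusted p = 4.9e-06) and CTNNA2 (-2.13 ± 0.31, adjusted p = 1.5e-06) were lower. CDH20 was counted as lower and is given no test, since it passed the filter on low counts through cumulus-like and not mural-like sums. That call was lost without Du'an replicate 2.

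Theca-like nuclei, the steroid-making cells around the follicle, had a single member called higher. It was CDH24, given as values only since it passed the filter on low counts through sums of this and a few other classes. CDH24 held 0 and 16.9 CPM (Du'an) and 5.28 and 3.71 CPM (Nubian), and the call was lost without Du'an replicate 2 or Nubian replicate 2. Theca-like against mural-like nuclei called 1 member higher and 6 lower (all genes 7.80% and 10.4%). CTNNA2 (-2.20 ± 0.32, adjusted p = 5.7e-07) and CDH2 (-2.05 ± 0.30, adjusted p = 1.0e-06) were lower in theca-like nuclei. PCDH9 was higher (log2 fold change 1.75 ± 0.48, adjusted p = 0.0065), a call lost without Nubian replicate 1 (1.62, adjusted p = 0.070).

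CDH5, the VE-cadherin that seals endothelial junctions, was counted as higher in both endothelial-like classes and in no other. It passed the filter on low counts through 11 sums of these, ciliated-like, pericyte-like and theca-like classes alone. Its levels are therefore given without a test. Blood endothelial-like nuclei held 120.2 and 121 CPM (Du'an) and 119 and 157 CPM (Nubian). Lymphatic endothelial-like nuclei held 72.6 and 82.6 CPM (Du'an) and 86.9 and 102 CPM (Nubian), and both classes had little spread between goats. After thinning, 10.9% of blood and 8.29% of lymphatic endothelial-like nuclei had a CDH5 UMI, against 0.0841% of T or NK-like and 0.122% of cumulus-like nuclei. Before thinning the blood endothelial-like share was 24.4% at a median depth of 1950 UMIs. Both endothelial-like shares were thus far above those of classes that should lack the gene.

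CDH13, the T-cadherin, which is held by a lipid anchor and has no tail for catenins, was highest in blood endothelial-like nuclei, followed by pericyte-like and then lymphatic endothelial-like nuclei. It stood at 495 and 308 CPM (Du'an) and 643 and 825 CPM (Nubian) in blood endothelial-like nuclei (log2 fold change 5.43 ± 0.30, adjusted p = 1.6e-20, and 4.53 without Nubian replicate 2), at 318 and 138 CPM (Du'an) and 381 and 263 CPM (Nubian) in pericyte-like nuclei (log2 fold change 3.84 ± 0.45, adjusted p = 2.1e-09) and at 143 and 168 CPM (Du'an) and 194 and 88.5 CPM (Nubian) in lymphatic endothelial-like nuclei (log2 fold change 3.10 ± 0.36, adjusted p = 7.6e-10). All 4 goats kept blood above lymphatic, yet the contrast of the pair (log2 fold change 2.17 ± 0.53, adjusted p = 0.0021) was lost without Nubian replicate 2 (1.41, adjusted p = 0.097) and without the goat block (1.86, adjusted p = 0.13). PCDH12, the vascular endothelial protocadherin, was highest in the lymphatic class. It passed the filter on low counts through the 4 lymphatic endothelial-like sums alone, so its levels are given without a test. Lymphatic endothelial-like nuclei held 12.96 and 7.56 CPM (Du'an) and 19.1 and 22.7 CPM (Nubian) and blood endothelial-like ones 0.765 and 0.96 CPM (Du'an) and 4.01 and 0 CPM (Nubian), and every lymphatic value lay above every blood value.

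Blood against lymphatic endothelial-like nuclei called 3 members higher and 5 lower (all genes 6.95% and 7.34%). PCDH1, a protocadherin of epithelia and vessels, was counted as higher in blood. It passed the filter on low counts through blood endothelial-like, ciliated-like and pericyte-like sums alone and is given as values only. Blood endothelial-like nuclei held 4.59 and 5.76 CPM (Du'an) and 11.4 and 0 CPM (Nubian), and the call was lost without Du'an replicate 2 or Nubian replicate 1. CDH4, the R-cadherin, was counted as lower in blood. It passed the filter on low counts through lymphatic and not blood endothelial-like sums, so it is given as values only. Lymphatic values were 5.18 and 17.6 CPM (Du'an) and 3.91 and 0 CPM (Nubian), and without Du'an replicate 2 the call was lost. CDH23, a long cadherin of hair-bundle tip links, reached 61.2 and 33.1 CPM (Du'an) and 28.1 and 24.1 CPM (Nubian) in blood endothelial-like nuclei (log2 fold change 2.13 ± 0.26, adjusted p = 3.6e-09). It was the one CDH gene besides CDH22 raised in an immune class, with 31.6 and 25.4 CPM (Du'an) and 29.00 and 21.8 CPM (Nubian) in T or NK-like (log2 fold change 1.63 ± 0.29, adjusted p = 4.4e-06) and 14.1 and 30.5 CPM (Du'an) and 44.4 and 34.3 CPM (Nubian) in macrophage-like nuclei (log2 fold change 1.96 ± 0.27, adjusted p = 3.4e-08). Among the catenins the p120 gene CTNND1 was highest in blood endothelial-like nuclei, at 201 and 154 CPM (Du'an) and 180.3 and 179.9 CPM (Nubian) (log2 fold change 0.80 ± 0.14, adjusted p = 4.9e-06).

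**Figure D4:**
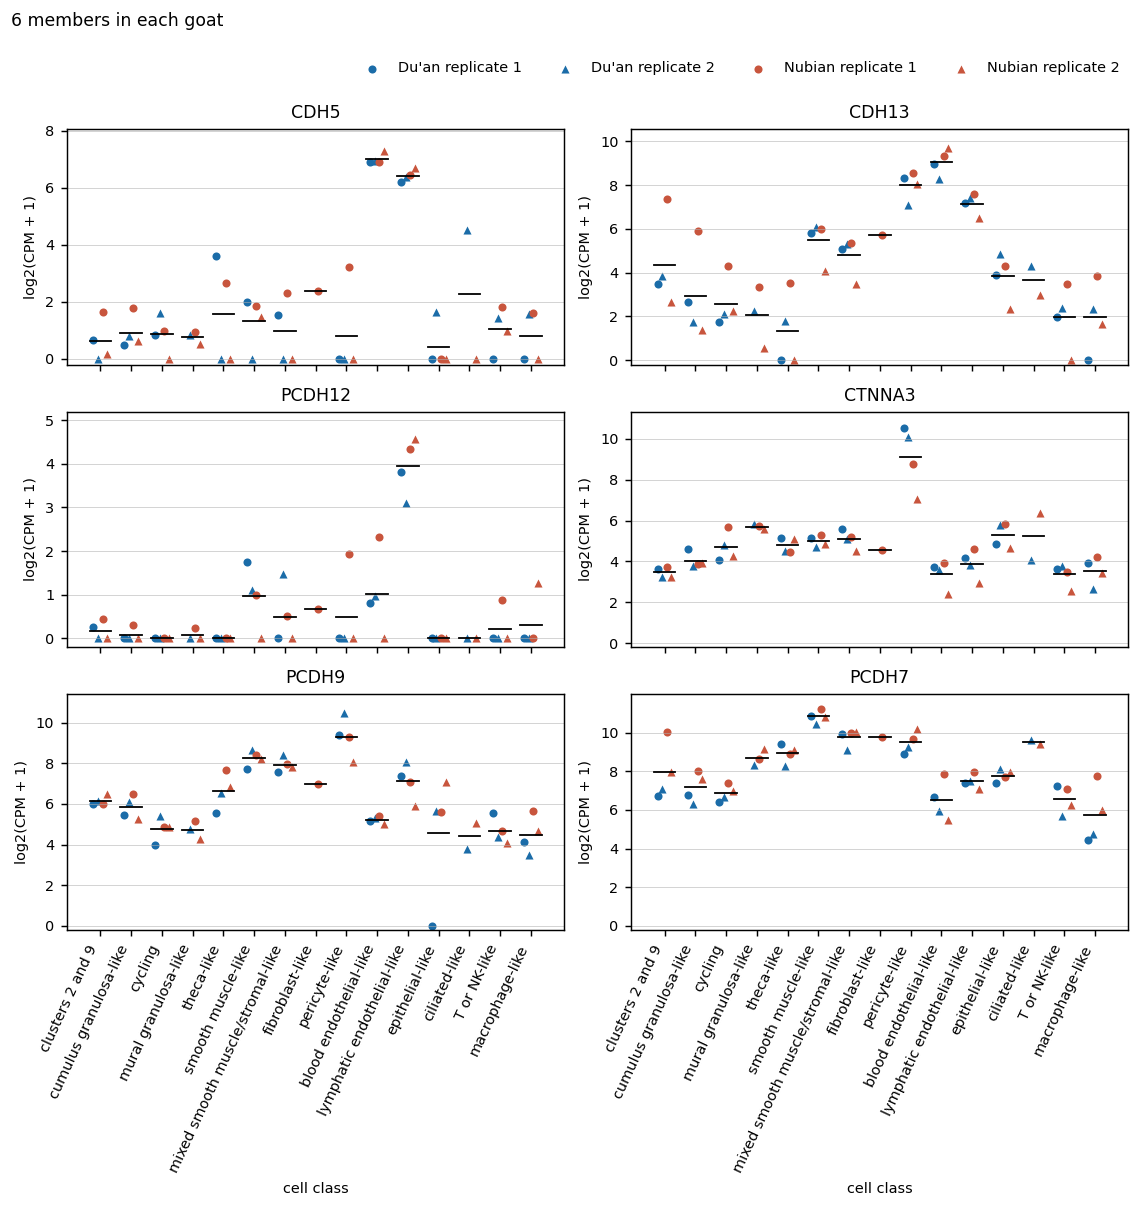
Levels of CDH5, CDH13, PCDH12, CTNNA3, PCDH9 and PCDH7 in every class, as log2(CPM + 1), with 1 point for each goat (blue Du'an, red Nubian, circles replicate 1, triangles replicate 2) and a bar at their mean on that scale. CDH5 and CDH13 lie highest in blood endothelial-like nuclei, PCDH12 in lymphatic endothelial-like, CTNNA3 and PCDH9 in pericyte-like and PCDH7 in smooth muscle-like nuclei.

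Pericyte-like nuclei, the contractile cells around small vessels, were set apart by an α-catenin. CTNNA3, known from heart muscle, was at 1473 and 1076 CPM (Du'an) and 429 and 131 CPM (Nubian), a mean of 777 ± 609 CPM (SD, n = 4) (log2 fold change 4.86 ± 0.22, adjusted p = 6.7e-23), while the next class mean was 51.4 CPM in mural-like nuclei. Every pericyte-like value was above that mean, though the goats spanned a wide range, with both Du'an goats above both Nubian goats. After thinning 36.8% of pericyte-like nuclei had a CTNNA3 UMI, against 1.22% of macrophage-like nuclei. PCDH9, a δ-protocadherin of brain, stood at 664 and 1420.1 CPM (Du'an) and 630.2 and 263 CPM (Nubian) (log2 fold change 3.42 ± 0.25, adjusted p = 1.2e-15). PCDH1, again given as values only because of the filter, was at 46.2 and 17.2 CPM (Du'an) and 19.6 and 10.1 CPM (Nubian). CDH3, the P-cadherin of placenta and epithelia, was at 69.3 and 138 CPM (Du'an) and 50.4 and 30.3 CPM (Nubian) in pericyte-like (log2 fold change 2.45 ± 0.32, adjusted p = 5.5e-08) and 73.2 and 28.7 CPM (Du'an) and 51.7 and 30.8 CPM (Nubian) in smooth muscle-like nuclei (log2 fold change 2.00 ± 0.21, adjusted p = 4.3e-11). The pericyte-like sums rest on 105, 46, 155 and 39 nuclei.

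Smooth muscle-like nuclei had the most protocadherins called higher. PCDH7, a δ-protocadherin, held 1835 and 1385 CPM (Du'an) and 2419 and 1795 CPM (Nubian), a mean of 1859 ± 425 CPM (SD, n = 4) (log2 fold change 2.79 ± 0.21, adjusted p = 2.9e-15), and the mixed smooth muscle and stromal-like class 965 and 556 CPM (Du'an) and 1021 and 1051 CPM (Nubian) (log2 fold change 1.63 ± 0.24, adjusted p = 5.0e-07). A PCDH7 UMI was found in 65.5% of thinned smooth muscle-like nuclei and in 6.38% of T or NK-like ones. CDH4 was at 50.6 and 37.8 CPM (Du'an) and 43.8 and 16.7 CPM (Nubian), and PCDH18, a δ-protocadherin, at 16.1 and 20.6 CPM (Du'an) and 12.5 and 23.7 CPM (Nubian). Each passed the filter on low counts through sums of 4 classes alone, smooth muscle-like among them, so both are given as values only. PCDH10 reached 45.2 and 24.1 CPM (Du'an) and 26.7 and 18.5 CPM (Nubian) (log2 fold change 2.38 ± 0.36, adjusted p = 5.8e-07). For PCDH10 the smooth muscle-like value was above the mean of the other classes in 4 of 4 goats. In all 3 genes the mixed class was the next or second next in order. Of the 8 PCDH genes tested, 5 were higher in smooth muscle-like, 4 in pericyte-like and 4 in the mixed class, and 0 were lower in any of these. The counts include PCDH18 in the smooth muscle-like and mixed classes and PCDH1 in pericyte-like nuclei, calls that the filter favoured. Of all genes 17.2%, 8.01% and 13.1% were higher and 7.61%, 3.75% and 3.09% lower in these classes. With 8 genes, 0 lower cannot be told from such shares.

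Pericyte-like against smooth muscle-like nuclei called 4 members higher and 2 lower (all genes 3.48% and 4.21%). CTNNA3 was higher in pericyte-like nuclei (log2 fold change 4.48 ± 0.40, adjusted p = 9.3e-12, and 3.84 without Du'an replicate 1). PCDH1 was counted as higher as well and is given as values only, with 18 UMIs in the 4 pericyte-like sums and 3 in the 4 smooth muscle-like ones. CDH4 was counted as lower and is given no test, since it passed the filter on low counts through sums of 4 classes alone, these 2 among them. That call was lost without Du'an replicate 1 or Nubian replicate 1. PCDH7 was lower (log2 fold change -1.38 ± 0.39, adjusted p = 0.018), lost without Du'an replicate 1 (-1.34, adjusted p = 0.060) or Du'an replicate 2 (-1.43, adjusted p = 0.068).

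CDH1 was highest in the epithelia, at 123 and 142 CPM (Du'an) and 113 and 136 CPM (Nubian) in epithelial-like and 146 CPM (Du'an replicate 2) and 193 CPM (Nubian replicate 2) in ciliated-like nuclei. It passed the filter on low counts through sums of these classes, pericyte-like nuclei and clusters 2 and 9 alone, so its levels are given without a test. Thinned shares in epithelial-like and ciliated-like nuclei were 13.99% and 16.3%, and no thinned T or NK-like nucleus held a CDH1 UMI. Clusters 2 and 9 held 5.92 and 6.74 CPM of CDH1 (Du'an) and 17.98 and 6.23 CPM (Nubian), far less than the epithelia. CDH20, a type II cadherin, held 794 and 186 CPM (Du'an) and 122 and 577 CPM (Nubian) in epithelial-like nuclei. It passed the filter on low counts through ciliated-like, cumulus-like, cycling and epithelial-like sums alone, so these levels are given without a test. The 4 goats differed several-fold from each other, and the lowest of them was still above every value of every other named class. CDH6, the kidney cadherin of type II, was at 123 and 319 CPM (Du'an) and 235 and 329 CPM (Nubian) (log2 fold change 4.09 ± 0.31, adjusted p = 3.4e-15), and at 69.7 CPM (Du'an replicate 2) and 64.3 CPM (Nubian replicate 2) in ciliated-like nuclei (log2 fold change 2.27 ± 0.60, adjusted p = 0.0025). PCDH17, a δ-protocadherin, was uneven in epithelial-like nuclei, at 466 and 19.4 CPM (Du'an) and 0 and 52.4 CPM (Nubian), so its call there (log2 fold change 2.50 ± 0.41, adjusted p = 2.6e-06) leaned on the 25 nuclei of Du'an replicate 1 (1.60, adjusted p = 0.0022 without that goat).

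Epithelial-like against ciliated-like nuclei called 1 member higher and 4 lower (all genes 6.33% and 9.63%). CDH20 was counted as higher in epithelial-like nuclei and is given above as values only because of the filter. CTNNA2 was lower in epithelial-like nuclei (log2 fold change -4.71 ± 0.35, adjusted p = 6.0e-15). CDH5 was counted as lower as well, on few UMIs, and the call was lost without Du'an replicate 1. It is given no test, since it passed the filter on low counts through ciliated-like and not epithelial-like sums. The plakoglobin gene JUP, which serves both adherens junctions and desmosomes, was raised in epithelial-like nuclei at 54.8 and 110.0 CPM (Du'an) and 46.9 and 129 CPM (Nubian) (log2 fold change 0.96 ± 0.22, adjusted p = 0.00056), lost without Nubian replicate 2 (0.55, adjusted p = 0.26).

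CTNNB1, the β-catenin gene, was the most evenly spread of the members tested. It ran from a class mean of 167 CPM to one of 397 CPM, a ratio of 2.38 that was the smallest among the tested members. Its highest class was cumulus-like, with 462 and 388 CPM (Du'an) and 309 and 430.0 CPM (Nubian) (log2 fold change 0.93 ± 0.13, adjusted p = 1.9e-07). CTNNA1, the common α-catenin, was highest in epithelial-like nuclei, at 383 and 516 CPM (Du'an) and 376 and 507 CPM (Nubian) (log2 fold change 1.02 ± 0.13, adjusted p = 1.1e-08), then in lymphatic endothelial-like nuclei at 351 and 340.4 CPM (Du'an) and 395 and 363 CPM (Nubian) (log2 fold change 0.80 ± 0.12, adjusted p = 6.7e-07). With the shares of all genes given above for each class, of the 7 catenins 5 were higher and 1 lower in clusters 2 and 9, 4 higher and 1 lower in cumulus-like nuclei, and 4 higher and 0 lower in both cycling and ciliated-like nuclei. In T or NK-like nuclei 0 were higher and 7 lower, and in macrophage-like nuclei 0 were higher and 6 lower.

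The immune classes gave members the smallest part of their UMIs. All members together took 0.0875% to 0.175% of the UMIs of T or NK-like sums and 0.114% to 0.202% of macrophage-like sums, whereas cumulus-like sums gave 0.796% to 1.18%. A large part of these shares was CDH2 and CTNNA2. In Du'an replicate 1 they stood at 4102 and 5893 CPM in cumulus-like and at 446 and 515 CPM in T or NK-like nuclei. T or NK-like against macrophage-like nuclei called 1 member higher and 2 lower (all genes 14.0% and 16.2%). CTNND1 (log2 fold change -2.31 ± 0.23, adjusted p = 1.3e-11) and CTNNA1 (-1.29 ± 0.19, adjusted p = 3.6e-07) were lower in T or NK-like nuclei, with CTNND1 at 23.01 and 24.4 CPM (Du'an) and 24.7 and 10.9 CPM (Nubian) there and at 103 and 112 CPM (Du'an) and 117 and 95.3 CPM (Nubian) in macrophage-like nuclei. The member counted as higher was CDH22, a type II cadherin. It passed the filter on low counts through 2 T or NK-like sums alone, so the filter fixed its call and it is given as values only. It had 54 UMIs in the whole series, stood at 17.3 and 3.57 CPM (Du'an) and 11.9 and 0 CPM (Nubian) in T or NK-like nuclei and had 0 UMIs in every macrophage-like sum.

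The 11 members that could not be tested between classes were scarce. CDH15 and PCDHB1 had 0 of 168133966 UMIs, which allows up to 0.0178 CPM (limit of 3 counts, counting error only, as for the intervals below). CDH16 had 5 UMIs, PCDH20 10, CDH19 42, PCDHB7 54, CDH9 71, PCDHB16 77, CDH26 89 and PCDHB14 103. CDH17, an intestinal cadherin, had 181, of which 73 lay in fibroblast-like nuclei of Nubian replicate 1. There it made 43.9 CPM (95% Poisson interval 34.4 to 55.2 CPM), against at most 3.06 CPM in the mean of any other named class.

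Some members sit side by side in the goat genome, and by the RefSeq table of assembly ARS1.2, in which all 42 were found, 6 pairs of tested members had at most 1 protein-coding gene between them. CDH12 and CDH18, with 0 genes between, were both higher in 3 classes (cumulus-like, cycling, and clusters 2 and 9), out of 4 for CDH12 and 3 for CDH18. PCDH10 and PCDH18 were both higher in 2, the smooth muscle-like and mixed classes, out of 4 and 3. PCDH18 passed the filter through 4 classes alone, these 2 among them. PCDH12 and PCDH1, which passed the filter through 1 and 3 classes only, shared 1 class of 3 and 4. CDH8, which passed it through 5 classes only, and CDH11 shared 1 of 1 and 4. CDH11 and CDH5, and CDH3 and CDH1, shared 0. The pairs were not tested for sharing.

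The partner genes of these junctions were read from 4 lists, in which 52 of 53 genes were found and 42 were tested. They passed the same filter on low counts, and which classes each passed through was not checked. In all 4 lists, a higher call of a gene scarce in other classes may thus have been favoured by the filter and is not independent support. Over 588 pairs of gene and class, 164 were higher and 124 lower, against 18.6% and 12.0% of all pairs. Of the 5 desmosome genes tested, 4 were higher and 0 lower in each of the epithelial-like, ciliated-like and cycling classes, where 15.7%, 16.5% and 21.5% of all genes were higher. The desmoglein gene DSG2 stood at 68.5 and 53.9 CPM (Du'an) and 18.8 and 37.2 CPM (Nubian) in epithelial-like nuclei (log2 fold change 5.32 ± 0.34, adjusted p = 1.3e-17, and 6.32 without Du'an replicate 2). JUP was raised in that class too, and CDH1 was high there. The plakophilin gene PKP3 was at 34.8 CPM (Du'an replicate 2) and 64.3 CPM (Nubian replicate 2) in ciliated-like nuclei (log2 fold change 7.48 ± 0.55, adjusted p = 3.3e-13). In cumulus-like nuclei 3 desmosome genes were higher and 0 lower (all genes 22.4% and 14.8%), among them PKP2 (log2 fold change 1.70 ± 0.20, adjusted p = 2.6e-09) and the desmoplakin gene DSP (1.39 ± 0.21, adjusted p = 6.1e-07). PKP4, a p120-related protein, was highest in lymphatic endothelial-like nuclei at 744 and 775 CPM (Du'an) and 935 and 665 CPM (Nubian) (log2 fold change 1.65 ± 0.12, adjusted p = 3.0e-16).

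Of 14 atypical cadherins tested, 6 were higher and 1 lower in ciliated-like nuclei, and 5 higher and 4 lower in epithelial-like nuclei (all genes 16.5% and 10.9%, and 15.7% and 9.84%). CDHR3, a cadherin of ciliated airway cells, stood at 463 CPM (Du'an replicate 2) and 556 CPM (Nubian replicate 2) in ciliated-like nuclei (log2 fold change 10.26 ± 0.28, adjusted p = 3.1e-25). The giant cadherin FAT4, of the planar polarity pathway, was at 426 and 339.7 CPM (Du'an) and 434 and 323 CPM (Nubian) in blood endothelial-like nuclei (log2 fold change 3.38 ± 0.15, adjusted p = 2.5e-24), and its relative FAT1 at 827 and 626 CPM (Du'an) and 458 and 879 CPM (Nubian) in clusters 2 and 9 (log2 fold change 2.12 ± 0.16, adjusted p = 1.6e-15). CELSR1, another planar polarity cadherin, was higher in epithelial-like (log2 fold change 4.35 ± 0.20, adjusted p = 3.7e-23) and lymphatic endothelial-like nuclei (4.09 ± 0.18, adjusted p = 1.6e-24).

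Of 18 nectins and junction adaptors tested, 10 were higher and 2 lower in blood endothelial-like nuclei, 10 and 1 in clusters 2 and 9, 8 and 3 in cumulus-like and 8 and 1 in lymphatic endothelial-like nuclei. The higher shares of all genes in these classes were 20.5%, 20.4%, 22.4% and 17.7%. In T or NK-like nuclei 1 was higher and 12 lower (all genes 28.8% and 23.9%), and in macrophage-like nuclei 0 and 15 (all genes 30.2% and 24.5%). PTPRB, the phosphatase that acts on VE-cadherin, stood at 1380.1 and 1113 CPM (Du'an) and 1245 and 1114 CPM (Nubian) in blood endothelial-like nuclei (log2 fold change 6.36 ± 0.20, adjusted p = 2.6e-30). The scaffold MAGI3 was at 1408 and 1550.0 CPM (Du'an) and 2224 and 1042 CPM (Nubian) in clusters 2 and 9 (log2 fold change 2.59 ± 0.13, adjusted p = 4.0e-21, and 3.25, adjusted p = 1.7e-26 with cluster 2 left out) and NECTIN2, which pairs with the cadherin junction, at 158 and 167 CPM (Du'an) and 116 and 188 CPM (Nubian) in lymphatic endothelial-like nuclei (log2 fold change 2.51 ± 0.15, adjusted p = 3.2e-19).

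The fourth list held transcription factors known to repress CDH1. Of the 5 tested, 4 were higher and 0 lower in clusters 2 and 9 (all genes 20.4% and 10.8%), 4 higher and 1 lower in T or NK-like nuclei (28.8% and 23.9%) and 3 higher and 0 lower in smooth muscle-like nuclei (17.2% and 7.61%), whereas epithelial-like nuclei had 1 higher and 3 lower (15.7% and 9.84%). SNAI2 stood at 21.4 and 25.2 CPM (Du'an) and 20.4 and 29.9 CPM (Nubian) in smooth muscle-like nuclei (log2 fold change 3.38 ± 0.27, adjusted p = 1.3e-14, and 4.07 without Nubian replicate 2) and TWIST2 at 19.6 and 26.4 CPM (Du'an) and 22.7 and 14.1 CPM (Nubian) (log2 fold change 4.67 ± 0.41, adjusted p = 8.2e-13, from 4.02 without Du'an replicate 2 to 5.44 without Nubian replicate 1). In clusters 2 and 9 TWIST1 was raised (log2 fold change 2.12 ± 0.21, adjusted p = 1.9e-11, and 3.08, adjusted p = 2.3e-16 with cluster 2 left out). CDH1 was counted as higher there as well and is given above as values only. The relation of these factors to CDH1 was not tested.

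Nubian and Du'an goats were then compared within each of 12 classes with sums from all 4 goats, by a quasi-likelihood fit per class of 2 goats against 2. edgeR called 0 of 211 member tests, beside 0.0% of 106914 tests over all genes. At an unadjusted p under 0.05 there were 22 tests, where all genes gave 4.16%, and DESeq2 called 2. Of all genes, DESeq2 called 0.333%. Without the filter on low counts edgeR called 14 (0.948% of all genes), and with a single goat left out it called 1 to 4 (0.0986% to 0.686% of all genes). The breeds did not overlap in 68 of 211 tests (32.2%), near the 31.3% of all genes. Clusters 2 and 9 are given apart below, and without them 0 of 186 tests were called, 18 had an unadjusted p under 0.05 and 57 did not overlap.

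For PCDH7 the Nubian values were the larger in most classes without passing the test. Leaving clusters 2 and 9 out, its log2 difference was positive in 10 of 11 classes, with a median log2 difference of 0.47. The breeds did not overlap in 5 of the 11, where all gene and class pairs gave 31.3%. These classes come from the same 4 goats and are not separate support. In cumulus-like nuclei it stood at 109 and 77.01 CPM (Du'an) and 258 and 195 CPM (Nubian) (log2 difference 1.23 ± 0.22, unadjusted p = 0.0022, adjusted p = 0.9997), and DESeq2 called it with an adjusted p of 0.038. The cumulus-like nuclei of Nubian replicate 1 lay mostly in cluster 8 (2238 of 2469) and those of the Du'an goats in cluster 3 (983 of 1035 and 2473 of 2543), as did those of Nubian replicate 2 (1151 of 1172). Within cluster 3 PCDH7 held 111 and 76.7 CPM (Du'an) and 272 and 189 CPM (Nubian) and within cluster 8 71.9 and 90.3 CPM (Du'an) and 256 and 704 CPM (Nubian). In macrophage-like nuclei the values were 21.2 and 25.7 CPM (Du'an) and 214 and 63.8 CPM (Nubian) (log2 difference 2.45 ± 0.60, unadjusted p = 0.0041, adjusted p = 0.67), and without Nubian replicate 1 the difference was 1.33. Whether these UMIs came from the macrophage-like nuclei themselves was not tested. In cluster 2 PCDH7 held 65.8 and 78.6 CPM (Du'an) and 477 and 229 CPM (Nubian), and in cluster 9 it held 178 and 159 CPM (Du'an) and 1080.0 and 303 CPM (Nubian), again with both Nubian goats above both Du'an goats. Nubian replicate 1 was the highest goat in each of these sets of values except cluster 8, where Nubian replicate 2 was, on 21 nuclei.

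**Figure D5:**
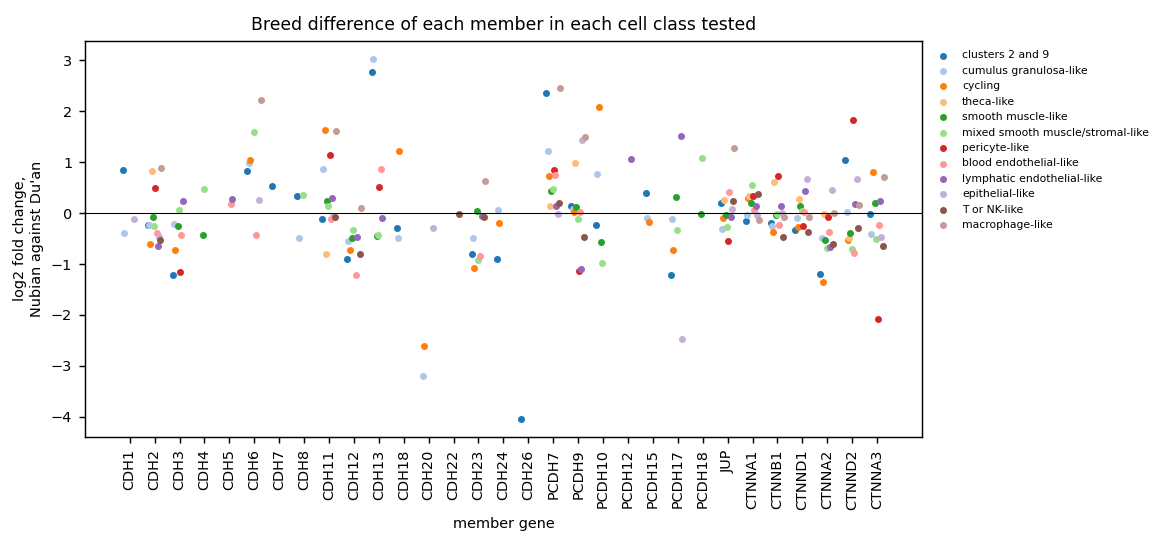
Fitted log2 fold change of Nubian against Du'an goats for each member in each class tested, with positive values where the Nubian goats were higher and 1 colour for each class. No point passed an adjusted p of 0.05 by edgeR, and most PCDH7 points lie above 0 while most CTNNA2 points lie below it.

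CTNNA3 in pericyte-like nuclei went the other way, at 1473 and 1076 CPM (Du'an) and 429 and 131 CPM (Nubian), with no overlap of the breeds (log2 difference -2.08 ± 0.51, unadjusted p = 0.0034, adjusted p = 0.48). It was called when Du'an replicate 1 (-1.81, adjusted p = 0.043), Du'an replicate 2 (-2.31, adjusted p = 0.0010) or Nubian replicate 1 (-3.28, adjusted p = 0.00018) was left out, with the lone goat assumed to vary like the other breed. For CTNNA2 the log2 difference was negative in 10 of 11 classes other than clusters 2 and 9 (median -0.48). The breeds did not overlap in 2 of the 11 (31.3% over all gene and class pairs). These classes too come from the same 4 goats and are not separate support. CDH20 in cumulus-like nuclei was at 24.4 and 5.74 CPM (Du'an) and 1.17 and 2.18 CPM (Nubian), low in all goats but Du'an replicate 1 (log2 difference -3.21 ± 0.83, unadjusted p = 0.011, adjusted p = 0.9997). DESeq2 called it with an adjusted p of 0.022, and without Du'an replicate 1 edgeR gave -1.91, adjusted p = 0.9983. By cluster CDH20 held 25.8 and 5.53 CPM (Du'an) and 1.89 and 2.21 CPM (Nubian) in cluster 3 and 0 and 15.6 CPM (Du'an) and 1.07 and 0 CPM (Nubian) in cluster 8. CTNNA1 had the most classes without overlap of any member, 7 of the 11, where all gene and class pairs gave 31.3%. The classes come from the same 4 goats, and its smallest adjusted p in any of them was 0.68. CDH13 in cluster 9 was at 17.4 and 8.03 CPM (Du'an) and 166 and 12.99 CPM (Nubian), where Nubian replicate 1 alone was high and Nubian replicate 2 stayed with the Du'an goats. CDH26, tested between breeds in clusters 2 and 9 alone, held 5.31 and 11.7 CPM (Du'an) and 0.375 and 0.649 CPM (Nubian) in cluster 9, with both Du'an goats above both Nubian goats. With Nubian values this low, it could have passed the filter on low counts through the Du'an sums alone. That order of the breeds was then favoured by the filter and is not independent support.

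Whether the breed difference itself differed between classes was asked in a single fit over 12 classes. edgeR called 0 of 31 members (0.0% of 14456 genes), with 6 at an unadjusted p under 0.05 (4.74% of all genes), and DESeq2 called 0 (0.263% of all genes). Without the filter on low counts 12 were called (2.98% of all genes), and without Nubian replicate 2 CDH13 was (0.0198% of all genes). CDH20 had the smallest p (0.00066, adjusted p = 0.35), followed by CTNNA3 (0.0018, adjusted p = 0.46). This fit held the goat as a block, so its p-values measure how far differences between classes vary among goats of a breed, with 2 goats a breed.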

How the data were processed

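Ovaries of 4 goats, 2 for each breed, were profiled by single-nucleus RNA sequencing with 1 library a goat. The authors made the deposited count matrices (UMIs per gene and nucleus, not normalized) with Cell Ranger, version 5.0.0 in the submitters' processing notes and 3.1.0 in the headers of the matrices, from a goat genome that is named by an assembly number alone. The tables of cluster marker genes hold fold changes, p-values and shares from the authors' own comparisons and were not used. Kept libraries held 29800057 to 54540864 UMIs. This depth sets the counting error, and intervals and limits cover that error only.

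Nuclei beyond 2 SD of the library mean in UMIs or genes (2355 of 48332) or with over 20% mitochondrial UMIs (1105) were left out. Scrublet marked 0 nuclei and so had not worked as a doublet caller. An alternative left out, by doublet score, the top 10% of nuclei. Nuclei were clustered with scanpy 1.11.5 and leidenalg 0.10.2 in Python 3.11.15 (2000 variable genes without the members and their partners, 30 components, 20 neighbours, resolution 0.8). A cluster was named when at least 3 markers of a list, and at least 50% of those detected, stood at 10 CPM or more and at a log2 fold of 1 or more over the median cluster, with a mean log2 fold of at least 0.5. The smooth muscle and stromal lists within 0.25 of each other gave a mixed name, and other lists that close left the cluster unnamed. The general granulosa list was not weighed against the granulosa subtypes in this step. These limits were set after the data had been seen.

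UMIs were summed over the nuclei of a class in a goat, where there were at least 20, giving 53 sums. edgeR 4.0.16 in R 4.3.3 fitted the quasi-likelihood model with TMM factors and its default filter on low counts, and p-values were adjusted by Benjamini-Hochberg over all genes of a comparison, with a limit of 0.05. The class fit and the contrasts of class pairs had the goat as a block, and breeds were compared in a fit for each class and, for the difference between classes, in a joint fit of 14456 genes. The scripts were tested on simulated data. Replicate numbers in the labels do not say that goats were matched, and deviations of goats with the same number correlated at -0.251 to 0.278 over 12 classes (median -0.0752), so breeds were compared without a block. Each goat gave 1 sample. In the breed fit of a single class, p-values measure the spread between these 4 goats. With the goat as a block, they measure how far differences between classes vary among these goats, pooled over the classes of the fit. Shares of nuclei with a UMI were taken after thinning each nucleus to 1000 UMIs, without shallower nuclei.

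The members and all lists were chosen with earlier results of these data known. The genes described were all catenins with CDH1, CDH2, CDH3, CDH5, CDH11 and CDH13, up to 3 further members a class by fold change, up to 2 for each direction of a class pair and up to 2 partner genes for each list and class, and other genes, such as CDH7, CDH8, CDH22, CDH24, CDH26 and PCDH1 in some classes, were named after their values had been seen. Alternatives were DESeq2 1.42.0, another scaling (RLE), no filter on low counts, resolutions of 0.4 and 1.2, markers left out of the variable genes, nuclei of high doublet score or shared barcodes left out, cluster 2 left out of its class, each goat left out in turn, and fits with and without the block.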

Additional observations from a re-analysis of the deposited data

How the results depend on the processing

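The 184 calls of members by class were 147 to 171 with a goat left out, 160 with no goat block and 181 to 200 under the other alternatives, and DESeq2 called 100 of its 200 higher and 100 lower, where edgeR called 106 and 78. The 53 calls between pairs of classes became 34 without Du'an replicate 2 (34 to 46 over the goats left out, 40 with no goat block). Leaving out Du'an replicate 2 or Nubian replicate 2 also removes the ciliated-like class, which had sums from those goats only. With cluster 2 left out of its class there were 184 and 52 calls, of which 179 and 47 were shared. Partner genes gave 288 calls, and 228 to 254 with a goat left out. Between breeds the count of 0 became 2 with DESeq2, 14 with no filter on low counts and 1 to 4 with a goat left out, where the lone goat of a breed is assumed to vary like the other breed. Without Nubian replicate 2 the 4 calls were all in cycling nuclei (CDH13 2.78, CDH12 -1.65, CTNND2 -2.03 and CDH2 -1.63 on the log2 scale), where 210 of all genes were called and where Nubian replicate 1 had 777 of 899 nuclei in cluster 14 and the Du'an goats 221 of 221 and 262 of 310 in cluster 13, so breed and cluster cannot be told apart. With the replicate number as a block 0 members were called between breeds, beside 1 of 106914 tests over all genes. With the numbers crossed, an alternative added after the data had been seen, 1 member was, beside 397 of 106914 (0.371%). The breed difference between classes went from 0 calls to 12 with no filter on low counts and to 1 without Nubian replicate 2 (0 to 1 over the goats left out). Of 230 values named for single genes, 162 kept their direction and their side of the limit under every alternative run, and of 3147 values under alternatives 2960 did so, 170 fell short of the limit, 13 came to pass it and 4 changed direction. These 4 were the lower CDH2 and CTNNA2 of epithelial-like nuclei, at 1.09 and 0.99 with the markers left out of the variable genes, and those of macrophage-like nuclei, at 0.13 and 0.20 at a resolution of 1.2. Each of these settings also changed which clusters made up the class. The cause was not tested. The contrasts of stromal with smooth muscle and of fibroblast with stromal classes were not run, since no stromal class was named and the fibroblast class came from 1 goat.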

Other observations

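Fibroblast-like nuclei gave a sum in Nubian replicate 1 alone (530 nuclei) and entered no test. There CDH11, the mesenchymal cadherin, was at 1671 CPM (95% Poisson interval 1609 to 1734 CPM, counting error only), the highest level of that gene in any named class. PCDH7 stood at 865 CPM (interval 821 to 911 CPM) and PCDH9 at 125 CPM (interval 108 to 143 CPM). CTNNA1, the common α-catenin, was at 221 CPM (interval 199 to 245 CPM), and CDH13, the T-cadherin, at 51.8 CPM (interval 41.4 to 63.9 CPM). CTNND2, the neural δ-catenin, was at 20.5 CPM (interval 14.2 to 28.6 CPM).

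Cluster 5, with 3181 nuclei, was given no name, and its members stood near those of the granulosa-like classes. CDH2 was at 2576 and 2349 CPM (Du'an) and 1623 and 1931 CPM (Nubian) and CTNNA2 at 4681 and 2714 CPM (Du'an) and 2581 and 880.0 CPM (Nubian), with Nubian replicate 2 the lowest goat for CTNNA2. CDH12 was at 114 and 172 CPM (Du'an) and 72.7 and 74.9 CPM (Nubian). CDH1, the epithelial cadherin, was low at 0 and 2.85 CPM (Du'an) and 3.33 and 6.39 CPM (Nubian).

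The cumulus-like class joined clusters 3 and 8, and 2238 of the 2381 nuclei of cluster 8 came from Nubian replicate 1. CDH2 was at 4203 and 3184 CPM (Du'an) and 3619.9 and 4145 CPM (Nubian) in cluster 3. In cluster 8 it was at 2350.4 and 1812 CPM (Du'an) and 2059.8 and 1679.8 CPM (Nubian), below cluster 3 in each of the 4 goats. CTNND2 followed the same order in each goat, with 422 and 235 CPM (Du'an) and 465 and 423 CPM (Nubian) in cluster 3 and 151 and 115 CPM (Du'an) and 217 and 273 CPM (Nubian) in cluster 8. Neither difference between the clusters was tested.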
